A study of Homo sapiens with 12 samples.

Results

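PHF19, MTF2 and PHF1 are the 3 human Polycomb-like genes, and the values below describe their transcripts in 12 RNA-seq libraries from 2 breast cancer cell lines in which PHF19 was or was not silenced. They were taken by name and are 3 of the 29972 gene rows listed in the 2 deposited tables together. All 3 had a test result in both lines, so none was lost to the filter on low counts. PHF19 was the gene targeted, so its own fall checks the knockdown, and the open questions were how abundant each paralog is in each line and whether MTF2 or PHF1 moved when PHF19 was lost.

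Polycomb repressive complex 2 (PRC2) methylates histone H3 at lysine 27 and keeps developmental genes silent. Its core of EZH1 or EZH2, SUZ12 and EED joins accessory subunits that define alternative forms. In the form called PRC2.1 the accessory subunit is one Polycomb-like protein, which binds unmethylated CpG-rich DNA through a winged-helix domain, reads methylated lysine 36 of histone H3 through a Tudor domain and carries a pair of PHD fingers. PHF19 is also called PCL3, MTF2 PCL2 and PHF1 PCL1. The alternative form, PRC2.2, holds JARID2 and AEBP2.

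MDA-MB-436 is an established triple-negative breast cancer line, and BoM-1833 is a bone-tropic triple-negative line. Each was reverse transfected with 5 nM siRNA and harvested after 72 h, either with a non-targeting control pool (siNT) or with 2 siRNAs against PHF19 mixed in equal parts (siPHF19). The 4 groups held 3 libraries each, and polyadenylated RNA was sequenced after a stranded preparation. The labels number the replicates and do not say whether they are separate cultures, so p-values measure the spread between these libraries, which may be technical. The siNT pool and the siRNAs against PHF19 are products of different companies, and because the latter were always used together, their separate effects cannot be told apart.

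Reads counted in genes ran from 15.2 to 24.0 M per library for MDA-MB-436 and from 13.7 to 21.3 M for BoM-1833. In BoM-1833 the siPHF19 libraries (13.7 to 16.6 M) were all shallower than the siNT libraries (17.6 to 21.3 M). Of the receptor genes that define triple-negative disease, ESR1 and PGR were at or below 0.241 RPM (reads scaled to equal library totals) in every library, whereas ERBB2 lay between 48.7 and 69.8. The epithelial keratin gene KRT19 was at most 0.057 RPM in MDA-MB-436, whereas BoM-1833 had 317 to 371. Other keratin genes were present in both lines. In MDA-MB-436 KRT8 ran from 53.8 to 98.5 RPM and KRT18 from 255 to 329. BoM-1833 had 517 to 886 and 447 to 664. These ranges take in both siRNA groups. With siPHF19, KRT8 rose by 0.69 (MDA-MB-436) and 0.70 (BoM-1833) on the log2 scale, and KRT18 by 0.26 and 0.46. All 4 rises were called by the deposited DESeq2 test. VIM was higher in BoM-1833 than in MDA-MB-436 (3809 to 4546 RPM against 977 to 1089), whereas CD44 was lower in BoM-1833 (555 to 603 against 640 to 839). With siPHF19, VIM fell by 0.21 in BoM-1833 and CD44 by 0.29 in MDA-MB-436 (adjusted p = 0.00213 and 2.66e-05 by DESeq2). EPCAM overlapped between the lines, at 4.28 to 6.10 (MDA-MB-436) and 5.18 to 8.18 RPM (BoM-1833). Of 7 markers of leukocytes, endothelium, liver and fibroblasts, the T cell gene CD3E was at 0 in all 12 libraries, and CDH5 and ALB did not pass 0.114 RPM. Other markers of this set were counted in BoM-1833, where PECAM1 ran from 16.6 to 24.0 RPM, PDGFRB from 9.60 to 16.4 and PTPRC from 0.894 to 1.28. The highest MDA-MB-436 values of PECAM1, PDGFRB and PTPRC were 1.83, 1.39 and 0.057 RPM. The 7 summed to 32.4 to 45.8 RPM in the MDA-MB-436 libraries and to 212 to 236 in those of BoM-1833, most of it CD68. In MDA-MB-436 the siPHF19 range (32.4 to 36.3) lay below the siNT range (39.9 to 45.8). CD68 itself fell in that line (log2 fold change −0.36, adjusted p = 0.00277 by DESeq2). It was not called in BoM-1833 (−0.10, adjusted p = 0.401 by DESeq2). The part of these marker differences in the results below was not tested. In bulk RNA, fewer cells of a type and less RNA per cell cannot be told apart.

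The sequences show how far the 3 genes can be told apart and where they are most alike. On GRCh38 (GENCODE v29), PHF19 lies at chr9:120855652-120894896 on the minus strand, MTF2 at chr1:93079235-93139081 on the plus strand and PHF1 at chr6:33410399-33416453 on the plus strand. Their longest annotated transcripts measure 4241, 4125 and 2330 bases. In a MAFFT alignment of the coding sequences of these transcripts, 52.9% of the aligned bases were identical between PHF19 and MTF2, 54.5% between PHF19 and PHF1 and 49.5% between MTF2 and PHF1. Across ungapped columns, 36.6% of the bases were the same in all 3 genes. The 60-base stretch with the most bases common to all 3 genes, shown because it is where they are hardest to tell apart together, had 40 identical in all 3. Within it PHF19 matched MTF2 at 45 bases and PHF1 at 44. It spans the join of exons 6 and 7 in each gene, at codons 193 to 213 of PHF19, 199 to 219 of MTF2 and 184 to 204 of PHF1. With the intron between, these lie at chr9:120866942-120869217, chr1:93115583-93118368 and chr6:33413522-33413759. Capitals mark the bases that all 3 share, written 5′ to 3′ on the coding strand.
PHF19: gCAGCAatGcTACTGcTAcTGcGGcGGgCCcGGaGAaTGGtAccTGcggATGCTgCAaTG
MTF2: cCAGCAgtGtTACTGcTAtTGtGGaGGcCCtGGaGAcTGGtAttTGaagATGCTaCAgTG
PHF1: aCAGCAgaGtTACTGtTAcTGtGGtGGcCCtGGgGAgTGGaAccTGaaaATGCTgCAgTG
Of the 20 columns that differed, 15 were at codon position 3, 4 at position 1 and 1 at position 2.

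**Figure D1:**
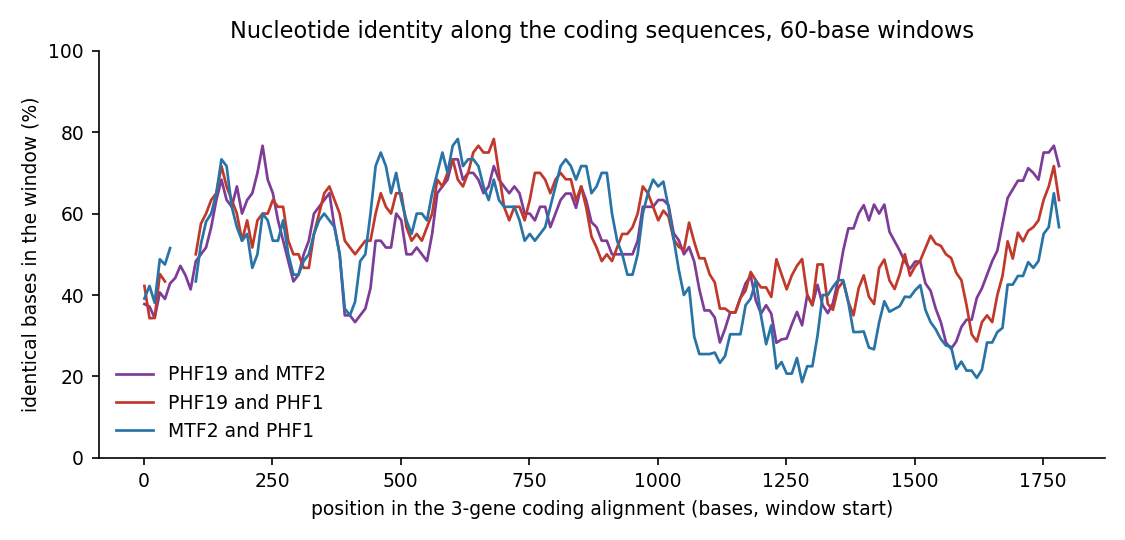
Nucleotide identity (percent of bases compared, y axis) between each pair of Polycomb-like coding sequences, in 60-base windows placed every 10 bases along their alignment (x axis, window start in bases). Windows starting in the first 1000 bases had medians of 58.3% (PHF19 and MTF2), 60% (PHF19 and PHF1) and 60% (MTF2 and PHF1), and later windows had medians of 44.7%, 45.1% and 32.6%. The highest windows reached 76.7%, 78.3% and 78.3%. Of the later windows alone, the highest reached 76.7%, 71.7% and 67.9%.

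Exact stretches shared between the full transcripts were short. The longest between PHF19 and PHF1 was 17 bases, in exon 7 of both, shown because PHF19 is the siRNA target (chr9:120866900-120866916 and chr6:33413785-33413801).
PHF19 and PHF1: GAGGCCTGCACCCAGTG
The longest between MTF2 and PHF1 was 20 bases, in exon 9 of both (chr1:93120594-93120613 and chr6:33414288-33414307).
MTF2 and PHF1: TAAGAAGAAATACTTTGATT
Between PHF19 and MTF2 the longest exact stretch was 13 bases. Among the 4223 windows of 19 bases in the PHF19 transcript, the closest match in MTF2 had 2 mismatches and the closest in PHF1 had 1. In all, 8 windows matched MTF2 and 40 matched PHF1 with at most 2 mismatches. The siRNA sequences themselves were not used here, so which of these windows they target is not given.

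In control cells PHF19 was the most abundant Polycomb-like transcript of MDA-MB-436, and PHF1 was the most abundant in BoM-1833. MTF2 was the least abundant in both. Levels of different genes are compared only after dividing by length, and here they are normalized counts per kilobase of the longest transcript, where a normalized count is a read count divided by the size factor of its library. In MDA-MB-436 siNT libraries PHF19 stood at 694, 791 and 887 per kilobase, with a mean of 791 ± 96.8 (SD, n = 3). PHF1 stood at 428, 454 and 384, with a mean of 422 ± 35.7. MTF2 stood at 173, 151 and 151, with a mean of 158 ± 12.9. The ranges of the 3 genes did not overlap in this line.

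In BoM-1833 siNT libraries PHF1 stood at 781, 718 and 709 per kilobase (mean 736 ± 39.2, SD, n = 3). PHF19 stood at 403, 397 and 394 (mean 398 ± 4.93). MTF2 stood at 154, 165 and 165 (mean 162 ± 6.39). Again the ranges were apart, with the order of PHF19 and PHF1 the reverse of that in MDA-MB-436. The gap between PHF1 and PHF19 in BoM-1833 narrows with the length used: per kilobase of coding sequence PHF1 was at 971 to 1070 and PHF19 at 929 to 952.

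**Figure D2:**
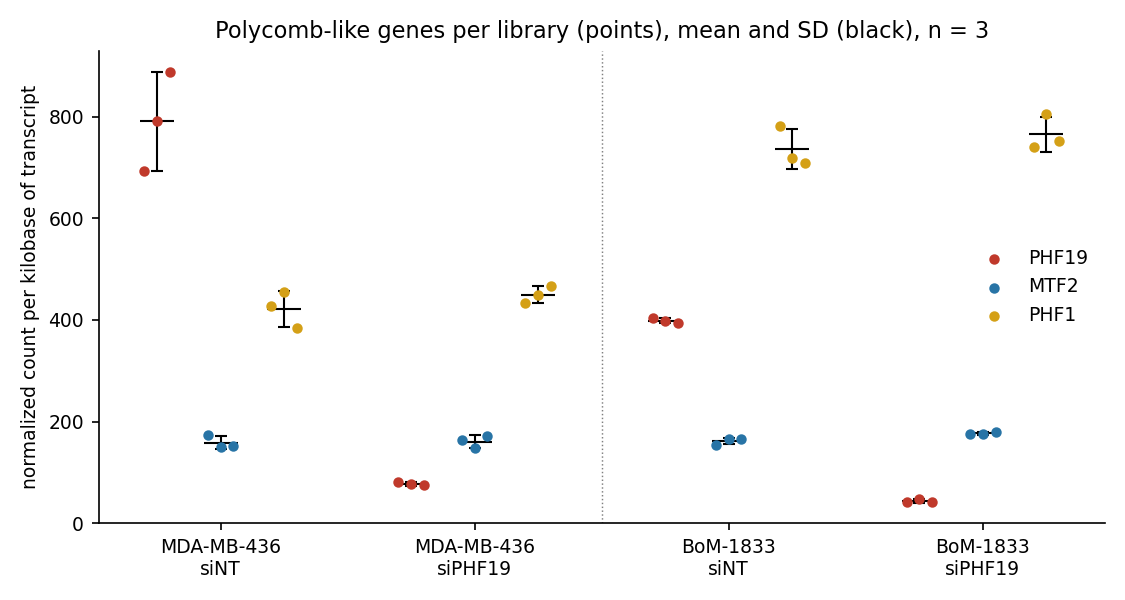
Normalized count per kilobase of the longest transcript (y axis) of PHF19, MTF2 and PHF1 in each library (points), with the mean and SD of the 3 libraries of each group in black. In both lines PHF19 drops under siPHF19 to the lowest of the 3 genes, while MTF2 and PHF1 stay near their siNT levels.

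Set among all genes with a length that averaged 10 or more normalized counts in siNT, PHF19 stood at percentile 88.0 (MDA-MB-436) and 77.2 (BoM-1833). PHF1 stood at percentile 77.2 and 88.3, and MTF2 at 52.7 and 53.6. MTF2 was thus close to the middle of the expressed genes in both lines, and PHF19 and PHF1 were above it. The percentile of PHF1 depends on the length used: with coding lengths it was 60.2 (MDA-MB-436) and 74.9 (BoM-1833), while PHF19 was at 85.4 and 73.4 and MTF2 at 48.9 and 50.5. Under siPHF19 the percentile of PHF19 was 35.7 (MDA-MB-436) and 24.9 (BoM-1833), so its transcript was still counted above many other genes.

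Between the control libraries of the lines, PHF1 was higher and PHF19 lower in BoM-1833. Because the tables were scaled separately, the reads of the 6 siNT libraries were scaled together with edgeR for this comparison, in which 80.9% of all tested genes differed (39.7% higher and 41.2% lower in BoM-1833), so a difference by itself is common. PHF19 measured 154, 180 and 203 RPM in MDA-MB-436 and 101, 102 and 99.2 in BoM-1833. Its log2 fold change, BoM-1833 over MDA-MB-436, was −0.80, or 0.573-fold (edgeR quasi-likelihood, adjusted p = 7.41e-06). PHF1 measured 52.1, 56.9 and 48.1 RPM in MDA-MB-436 and 108, 101 and 98.2 in BoM-1833. Its log2 fold change was 0.99, or 1.98-fold (edgeR, adjusted p = 8.69e-07). For both genes the libraries of the lines did not overlap.

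MTF2 differed less between the lines. It measured 37.3, 33.4 and 33.5 RPM in MDA-MB-436 and 37.7, 41.3 and 40.5 in BoM-1833, so the highest MDA-MB-436 library lay just below the lowest BoM-1833 library. The log2 fold change was 0.22 (edgeR, adjusted p = 0.0380), and the call did not hold in DESeq2 (0.22, adjusted p = 0.0536) or with no filter on low counts (0.20, adjusted p = 0.0739). It was also lost without MDA-MB-436 siNT replicate 2 or 3 (0.18 and 0.17) and without BoM-1833 siNT replicate 2 or 3 (0.20 each).

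PHF19 fell to a small part of its control level in every siPHF19 library of both lines, as the labels say it should. In MDA-MB-436 its normalized counts were 2942, 3354 and 3763 with siNT and 340.1, 326 and 315 with siPHF19, and in BoM-1833 they were 1711, 1684 and 1669 against 181, 201 and 173. Every siPHF19 library was far below every siNT library of its line. The MDA-MB-436 log2 fold change in the authors' deposited table was −3.36 (SE 0.11), leaving 9.75% of the siNT mean, with a DESeq2 adjusted p of 2.12e-211. The BoM-1833 value in the authors' deposited table was −3.19 (SE 0.10), leaving 10.9%, with a DESeq2 adjusted p of 1.53e-218. These falls stand against a background in which 22.1% of tested genes were called in MDA-MB-436 (11.5% lower, 10.5% higher), and for BoM-1833 10.9% (5.72% lower, 5.21% higher), at a deposited adjusted p under 0.05. The falls differed between the lines by 0.17 on the log2 scale (95% interval −0.12 to 0.45, adjusted p = 0.643 by z test). By that test 4.89% of all genes differed. Although the remaining fractions were alike, the amounts were not: the residual PHF19 level was 77.1 ± 3.01 per kilobase for MDA-MB-436 and 43.6 ± 3.35 for BoM-1833 (SD over the siPHF19 libraries), each within its own table's scale.

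MTF2 was not called changed by siPHF19 in either line. In MDA-MB-436 its normalized counts were 714, 622 and 622 with siNT and 672, 607 and 708 with siPHF19. These groups overlap throughout. The deposited log2 fold change was 0.02 (SE 0.11, 95% interval −0.19 to 0.23, adjusted p = 0.921 by DESeq2), and a 2-sided exact permutation test of the counts gave p = 1. Leaving out single libraries moved the estimate between −0.031 and 0.089, so its sign is not determined.

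In BoM-1833 MTF2 measured 637, 682 and 682 with siNT and 721, 723 and 741 with siPHF19. All 3 siPHF19 libraries lay above the highest siNT library, with means of 667 ± 26.3 (siNT) and 728 ± 11.1 (siPHF19, SD, n = 3). The share of all genes that separate in this way was not counted, so the separation by itself does not set MTF2 apart. The deposited log2 fold change was 0.13 (SE 0.09, 95% interval −0.05 to 0.30), and the DESeq2 adjusted p was 0.460, against 5.21% of genes called higher in this line. The exact permutation p was 0.1, the smallest that 3 against 3 libraries allow. The scatter among these siPHF19 libraries, 1.52% of the mean, was below the 3.92% that counting about 652 reads per library gives, so 3 values this close together are not a measure of their true spread. Before scaling, the shallower siPHF19 libraries held fewer MTF2 reads on average (726, 613 and 617, mean 652) than the siNT libraries (802, 740 and 715, mean 752). The ranges of these reads overlapped.

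PHF1 was not called changed either. In MDA-MB-436 it measured 998, 1059 and 894 with siNT and 1011, 1045 and 1088 with siPHF19, and 1 siPHF19 library lay above the highest siNT library. The deposited log2 fold change was 0.09 (SE 0.09, 95% interval −0.09 to 0.27, adjusted p = 0.548 by DESeq2), with an exact permutation p of 0.3. The estimate was 0.15 without siNT replicate 2 and 0.026 without siNT replicate 3. In BoM-1833 it measured 1820, 1674 and 1652 with siNT and 1724, 1874 and 1753 with siPHF19, again with 1 siPHF19 library above all siNT libraries. The deposited log2 fold change was 0.06 (SE 0.07, 95% interval −0.09 to 0.20, adjusted p = 0.759 by DESeq2), with an exact permutation p of 0.4. The estimate was 0.10 without siNT replicate 1, 0.037 and 0.028 without siNT replicate 2 and 3, and 0.018 without siPHF19 replicate 2.

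Of MTF2 and PHF1, 0 of 2 passed in each line by the deposited DESeq2 test and by edgeR, and 0 of 2 had an unadjusted p under 0.05 in either tool. By the deposited test 22.1% (MDA-MB-436) and 10.9% (BoM-1833) of all tested genes were called, so 0 of 2 is common for any 2 genes. All 4 estimates were above 0, but each interval includes 0. For MTF2 the upper end of the interval was 1.17-fold in MDA-MB-436 and 1.23-fold in BoM-1833, and for PHF1 it was 1.21-fold and 1.15-fold. Rises larger than these lie outside the intervals, and smaller ones lie inside them. The response did not differ between the lines for MTF2 (difference 0.11, 95% interval −0.16 to 0.38, adjusted p = 0.778 by z test) or for PHF1 (difference −0.03, 95% interval −0.26 to 0.20, adjusted p = 0.934 by z test) beyond these errors.

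**Figure D3:**
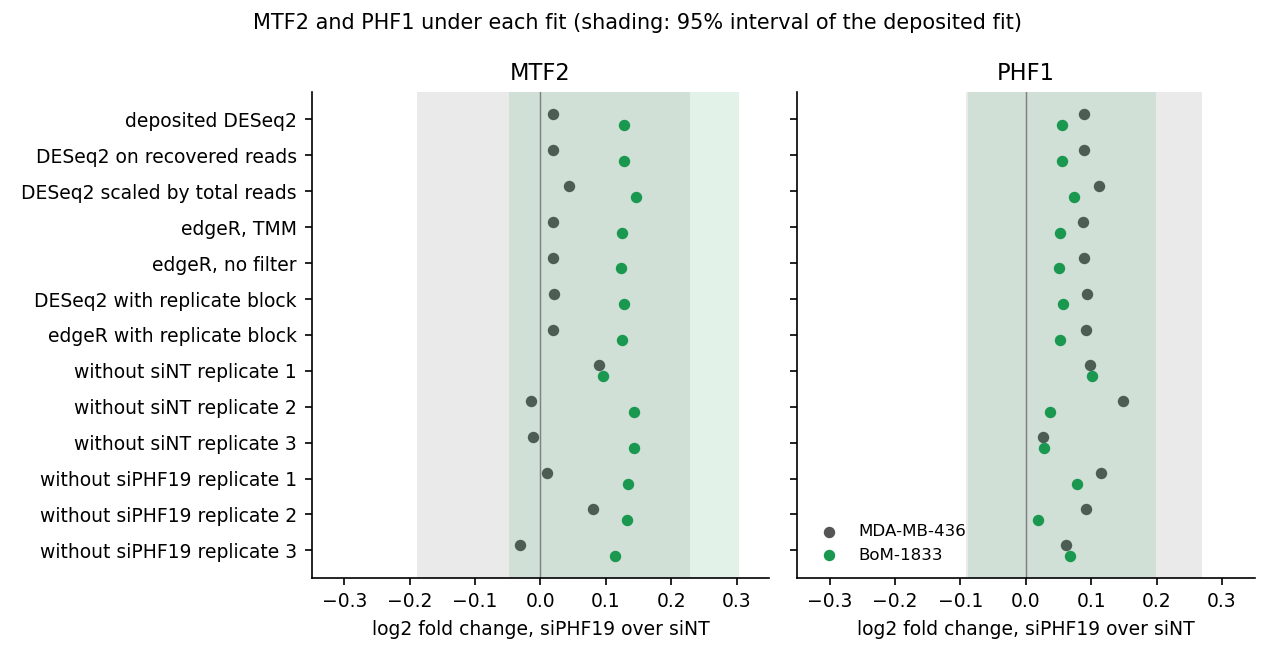
Log2 fold change of MTF2 and PHF1 (x axis) under the deposited fit and each other fit (rows), with MDA-MB-436 in grey and BoM-1833 in green. Shading gives the 95% interval of the deposited fit, and all points lie inside the interval of their line.

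With PHF19 low and the others near their control level, the make-up of the Polycomb-like transcript pool shifted to PHF1. In MDA-MB-436 siNT libraries PHF19 made up 57.5 ± 4.48% of the summed per-kilobase level of the 3 genes, PHF1 30.9 ± 3.37% and MTF2 11.6 ± 1.54% (SD, n = 3). With siPHF19 the shares were 11.2 ± 0.737%, 65.4 ± 1.31% and 23.3 ± 1.26%. In BoM-1833 PHF1 already held 56.8 ± 1.36% with siNT, against 30.7 ± 0.517% for PHF19 and 12.5 ± 0.840% for MTF2. With siPHF19 PHF1 held 77.7 ± 0.587%, MTF2 17.9 ± 0.757% and PHF19 4.42 ± 0.208%. The lead of PHF1 in BoM-1833 siNT libraries depends on the length used. It held 43.4% against 40.4% for PHF19 with coding lengths, and 45.8% against 41.6% with mean transcript lengths. Since shares sum to a whole, the rise of the MTF2 and PHF1 shares follows from the fall of PHF19 and is no sign of a rise in their levels.

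**Figure D4:**
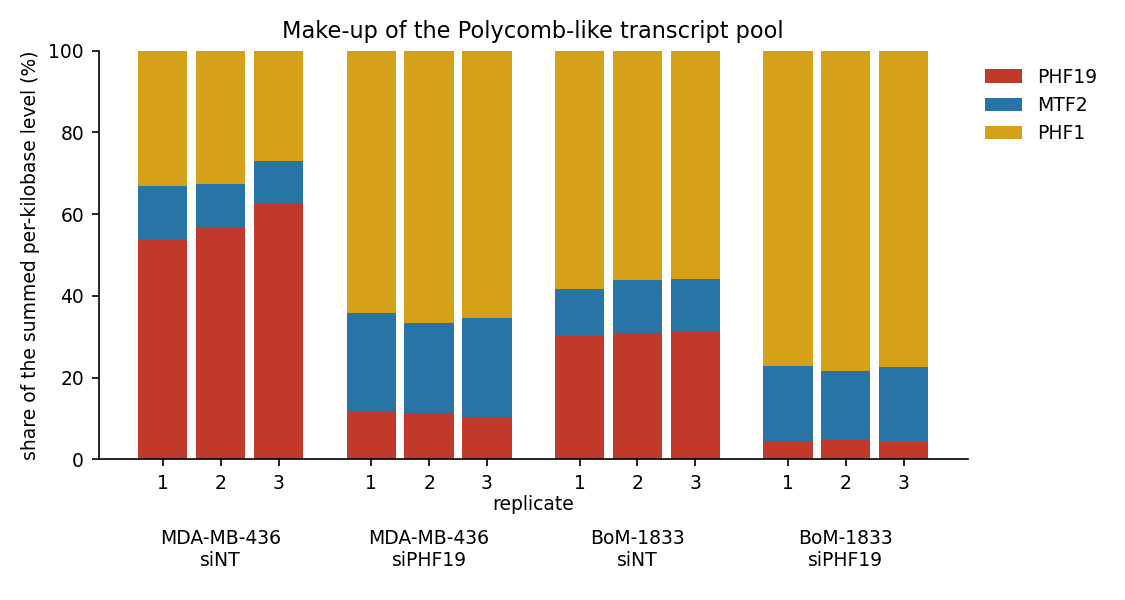
Share of PHF19, MTF2 and PHF1 in their summed level per kilobase of longest transcript (percent, y axis), with 1 bar per library. PHF19 is the largest part in the 3 MDA-MB-436 siNT libraries, and PHF1 is the largest in the other 9.

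The pool as a whole shrank more in MDA-MB-436, where PHF19 was its main part. The summed level went from 1371 ± 67.1 to 687 ± 22.0 per kilobase in MDA-MB-436 (SD, n = 3). For BoM-1833 it went from 1296 ± 37.7 to 986 ± 36.5 (SD, n = 3). That left 50.1% and 76.1% of the siNT sum, and the groups did not overlap in either line (exact permutation p = 0.1 each, the smallest possible). The sum includes PHF19, the siRNA target, so its fall follows from the knockdown and is no separate result. With coding lengths, which weigh PHF19 more, 41.6% and 67.2% remained. The PHF19 level dropped by 714 per kilobase in MDA-MB-436, while the mean of MTF2 differed by 2.29 and that of PHF1 by 27.7, which together equal 4.20% of the PHF19 loss. In BoM-1833 the PHF19 level dropped by 354 per kilobase, and the MTF2 and PHF1 means differed by 14.9 and 29.3, or 12.5% of the loss. With coding lengths these shares of the loss were 2.57% and 8.93%. These differences of MTF2 and PHF1 did not pass the test.

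The balance between the paralogs that were not targeted overlapped between siNT and siPHF19. The ratio of MTF2 to PHF1 per kilobase was 0.376 ± 0.0391 with siNT and 0.357 ± 0.0253 with siPHF19 in MDA-MB-436 (exact permutation p = 0.5, n = 3). It was 0.220 ± 0.0198 and 0.231 ± 0.0114 in BoM-1833 (exact permutation p = 0.5, n = 3).

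Among the other PRC2 genes, the accessory subunits EPOP and AEBP2 fell in both lines, while the catalytic subunits were not called by the deposited test. The list held 12 genes, of which 11 were tested, and EZHIP, an inhibitor of PRC2, was not. In MDA-MB-436 1 of the 11 was higher and 3 were lower, where 22.1% of all tested genes were called, and the list median log2 fold change was −0.03 beside −0.0022 over all tested genes. In BoM-1833 0 were higher and 2 were lower, where 10.9% of all tested genes were called, with a median of −0.06 beside −0.0035.

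EPOP, a PRC2.1 partner that links the complex to Elongin, stood at normalized counts of 482, 448 and 484 with siNT and 337, 266 and 327 with siPHF19 in MDA-MB-436. Its deposited log2 fold changes were −0.61 (SE 0.13, adjusted p = 2.57e-05 by DESeq2) in that line and −0.37 (SE 0.12, adjusted p = 0.0320 by DESeq2) in BoM-1833. AEBP2, which belongs to PRC2.2, went from 1482, 1348 and 1307 to 923, 968 and 834 in MDA-MB-436. Its deposited log2 fold changes were −0.60 (SE 0.09, adjusted p = 3.93e-09 by DESeq2) and −0.36 (SE 0.12, adjusted p = 0.0211 by DESeq2). In the same line the core subunit SUZ12 fell by 0.22 and LCOR, whose locus encodes a PRC2.1 partner of the PALI type, rose by 0.32 on the log2 scale, and neither was called in BoM-1833.

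The methyltransferase gene EZH2 had log2 fold changes of 0.14 (adjusted p = 0.154 by DESeq2) in MDA-MB-436 and 0.20 (adjusted p = 0.0757 by DESeq2) in BoM-1833. JARID2, the other PRC2.2 subunit, had 0.25 (adjusted p = 0.0560 by DESeq2) and −0.06 (adjusted p = 0.759 by DESeq2). Some other fits called these genes higher. EZH2 passed in MDA-MB-436 without siNT replicate 1 (0.18, adjusted p = 0.0313 by DESeq2) and in BoM-1833 with scaling by total reads (0.22, adjusted p = 0.0417 by DESeq2). JARID2 passed in MDA-MB-436 by edgeR (0.25, adjusted p = 0.0276) and with scaling by total reads (0.27, adjusted p = 0.0368 by DESeq2). The calls of EPOP and AEBP2 in MDA-MB-436 held in all 12 other fits, and the smaller calls depend on single libraries. SUZ12 was no longer called without siNT replicate 2 or any 1 siPHF19 replicate of MDA-MB-436 (−0.24 to −0.21), nor LCOR without siNT replicate 1 or 2 or any 1 siPHF19 replicate (0.26 to 0.36). In BoM-1833 EPOP was no longer called without siNT replicate 1 or 2 or any 1 siPHF19 replicate (−0.42 to −0.32), nor AEBP2 without siNT replicate 2 or 3 or siPHF19 replicate 1 or 2 (−0.39 to −0.28). As a result the count of 4 in MDA-MB-436 became 2 without siNT replicate 2 or without any 1 of the 3 siPHF19 replicates. The count of 2 in BoM-1833 became 0 without siNT replicate 2 or siPHF19 replicate 1 or 2, and 1 without siNT replicate 3 or siPHF19 replicate 3. Without siNT replicate 1 it became 3, with EPOP lost and EZH2 (0.22, adjusted p = 0.0333 by DESeq2) and LCORL (−0.36, adjusted p = 0.0326 by DESeq2) called.

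**Figure D5:**
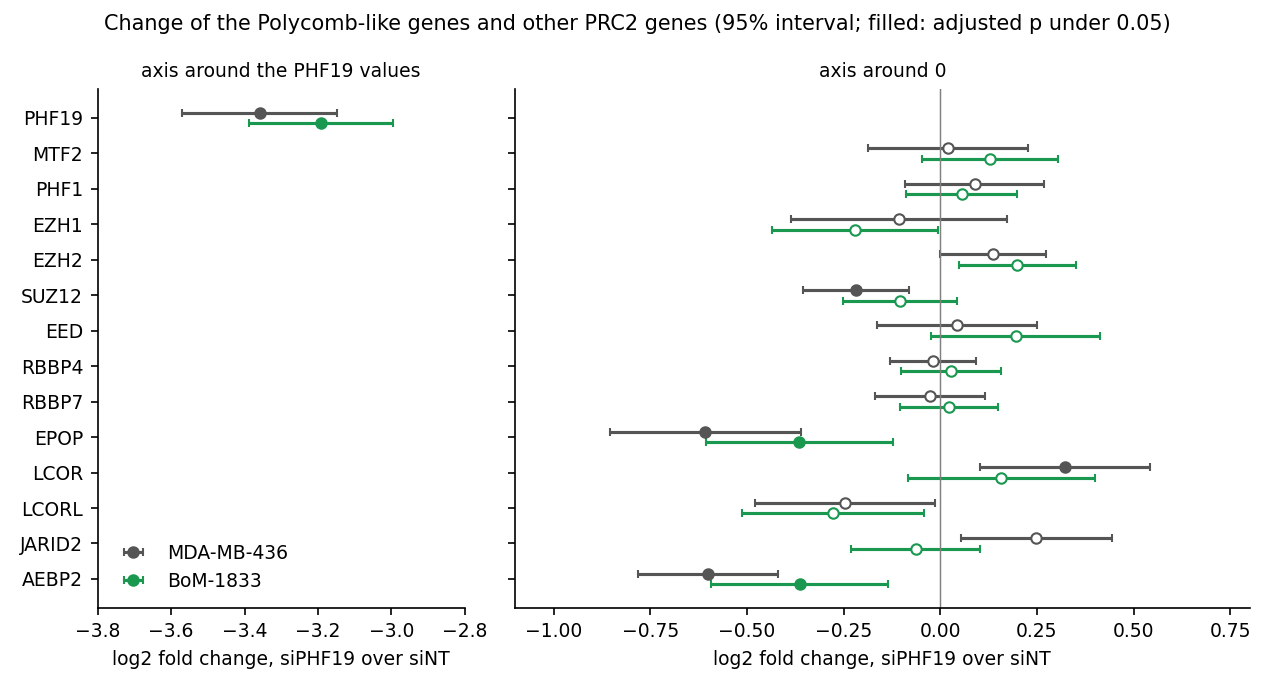
Log2 fold change, siPHF19 over siNT, with its 95% interval (x axis) for the Polycomb-like genes and the 11 tested genes of the PRC2 list (rows), MDA-MB-436 in grey and BoM-1833 in green, on a separate axis for PHF19. Filled circles passed an adjusted p under 0.05: PHF19, EPOP and AEBP2 in both lines, and SUZ12 and LCOR in MDA-MB-436.

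A further list held 8 genes for the enzymes and readers of the histone marks that Polycomb-like proteins bind or PRC2 writes. In MDA-MB-436 2 were higher and 1 lower, where 10.5% and 11.5% of all tested genes were. The H3K27 demethylase genes KDM6A and KDM6B rose by 0.49 (adjusted p = 0.000198 by DESeq2) and 0.46 (adjusted p = 3.12e-06 by DESeq2) on the log2 scale. NSD2, an H3K36 methyltransferase listed under its older symbol WHSC1, fell by 0.19 (adjusted p = 0.0360 by DESeq2). The KDM6A and KDM6B calls held in all 12 other fits, while that of NSD2 was lost in 10, among them those without siNT replicate 2 or 3 or any 1 siPHF19 replicate (−0.20 to −0.14). In BoM-1833, where 10.9% of all genes were called, 0 of the 8 passed by DESeq2 and 0 by edgeR, with 0 and 1 at an unadjusted p under 0.05, and without siNT replicate 1 the DESeq2 count became 2. The 2 lines differed in KDM6B (difference −0.45, adjusted p = 0.0237 by z test), where 4.89% of all genes differed by that test.

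The genes next to PHF19 were also read. Of the 18 tested genes nearest to the 3 members, 3 on each side, 1 was higher and 4 were lower in MDA-MB-436, and 0 were higher and 2 lower in BoM-1833. Over all tested genes 22.1% and 10.9% were called, so these counts lie near the background. On the side of higher coordinates, CNTRL, a centrosome gene and the farthest of the 3 neighbours there, went from 1090, 1029 and 1032 to 729, 750 and 717 in MDA-MB-436 and fell by 0.52 and 0.51 on the log2 scale in the 2 lines (adjusted p = 1.87e-08 and 0.000399 by DESeq2). TRAF1, a signalling adaptor gene and the nearest neighbour on the same side, fell by 0.56 and 0.39 (adjusted p = 0.0127 and 0.0287 by DESeq2). The TRAF1 call was lost without any 1 library but siNT replicate 1 in MDA-MB-436 (−0.60 to −0.44) and without any 1 library in BoM-1833 (−0.47 to −0.34), while the CNTRL calls held in all 12 other fits of each line. In RefSeq (GRCh38.p14) the PHF19 model runs from 120855651 to 120904128 on chromosome 9 and so overlaps TRAF1, which runs from 120902393 to 120929171, while in GENCODE v29 no gene overlaps PHF19. Which model the counting used is not given in the sources used here, and the part of that overlap in the TRAF1 value was not tested. Near MTF2, TMED5 fell by 0.48 and FAM69A rose by 0.49 in MDA-MB-436, and neither was called in BoM-1833. CUTA, whose 3′ end meets that of PHF1 on the other strand, fell by 0.31 in MDA-MB-436 (adjusted p = 0.0183 by DESeq2) and was not called in BoM-1833. The TMED5 call held in all 12 other fits, and TMED5 was also called in BoM-1833 without siNT replicate 1 (−0.21, adjusted p = 0.00435 by DESeq2). That of FAM69A was lost without any 1 siPHF19 replicate (0.45 to 0.52) and that of CUTA without siNT replicate 1 (−0.19) or any 1 siPHF19 replicate (−0.33 to −0.29). The counts of 5 and 2 became 2 without any 1 siPHF19 library of MDA-MB-436, and 1 without siNT replicate 2 or any 1 siPHF19 library of BoM-1833.

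Across the 12 libraries, after centring each line on its mean, the genes that followed PHF19 most closely were TMBIM6, NEDD4 and AMMECR1, with Pearson r of 0.994, 0.990 and 0.989 among 9835 genes. These genes fell with siPHF19 in both lines (log2 fold changes of −0.71, −1.07 and −1.25 in MDA-MB-436 and −0.80, −0.99 and −1.18 in BoM-1833), so the points share the split into siNT and siPHF19. MTF2 was followed by MCTP1, CGN and PRKRIR with r of 0.835, 0.829 and 0.819, and PHF1 by RPL28, COQ3 and CXorf40B with 0.930, 0.928 and 0.885. None of these last 6 was called in either line (DESeq2), and the choice of genes moved with the measure: with Spearman's rho 0, 1 and 1 of the 3 genes stayed for PHF19, MTF2 and PHF1. MTF2 and PHF1 had r of 0.17 with each other, and −0.46 and −0.49 with PHF19. These correlations are descriptions over libraries that share treatment and line.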

How the data were processed

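Polyadenylated RNA from 12 libraries (2 lines, siNT and siPHF19, 3 each) had been sequenced. The submitters' processing notes name hg38, STAR, RSEM 1.3.1 and DESeq2 1.46.0, with no roles. Per the file headers, the deposited tables, 1 per line, hold the authors' DESeq2 log2 fold changes and SEs, Wald statistics (a score), p-values and Benjamini-Hochberg adjusted p-values, and normalized counts per library (a signal: counts divided by size factors). The gene annotation behind them is not given in the sources used here.

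The deposited test is the main one, with a threshold of 0.05. Dividing normalized counts by their smallest step gave whole reads (tolerance 0.05), on which DESeq2 1.42.0 and edgeR 4.0.16 (R 4.3.3) were run as alternatives and for the comparison of control libraries. Run on these reads, DESeq2 called 3143 (MDA-MB-436) and 1411 (BoM-1833) genes, the same numbers as deposited, and the DESeq2, edgeR and z calculations were tested on simulated data. Lengths came from GENCODE v29, where 23813 of 29972 rows (79.5%) matched by symbol, all 3 members among them. It carries no MANE Select tag, the planned choice of transcript, so the longest one was used. For each of the 3 members this transcript is also tagged APPRIS principal. Coding sequences were aligned with MAFFT 7.526. Replicate pairs differed by more than sampling noise (chi-square per degree of freedom of 2.29 to 24.1), so each library counts once. The siNT pairs ran from 5.92 to 24.1 and the siPHF19 pairs from 2.29 to 3.45 over both lines. The part of this unequal spread in the results was not tested. Precision for 3 libraries a group is given by SDs and 95% intervals, and the counting error by reads.

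The members and gene lists were chosen with earlier results of these data known. Named genes are the members, list genes and neighbours called in a line, the 3 genes most like each member (log2 of normalized count plus 1, mean of at least 100) and the cell type markers. EZH2 and JARID2, which were not called, were named after their values were seen. Alternatives are other tools, scalings, filters and lengths, a replicate block and leaving out each library.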

Additional observations from a re-analysis of the deposited data

Results flagged for a closer look

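No Polycomb-like gene met a criterion for a closer look, and groups of 3 libraries are too small for a test of outlying samples. The other lists held 11 tested PRC2 genes, 8 genes related to histone marks and 18 neighbours. Among all of these, 2 genes responded to siPHF19 differently in the 2 lines by the z test of the difference itself. KDM6B, an H3K27 demethylase gene, differed by −0.45 (SE 0.14, BoM-1833 minus MDA-MB-436, adjusted p = 0.0237): it rose by 0.46 in MDA-MB-436 and had a log2 fold change of 0.01 in BoM-1833. TMED5, beside MTF2, differed by 0.35 (SE 0.11, adjusted p = 0.0294): it fell by 0.48 in MDA-MB-436 and had −0.14 in BoM-1833. Over all genes, 4.89% differed between the lines by this test, so 2 among the list genes and neighbours lies near the background.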

How the results depend on the processing

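The PHF19 fall was called in all 12 other fits of each line, and MTF2 and PHF1 were called in none of theirs. Among the 12 is DESeq2 run on the recovered reads, which repeated the deposited values and so could not differ. Without single libraries the MTF2 estimate ran from −0.031 to 0.089 in MDA-MB-436, below 0 without siNT replicate 2 (−0.015), siNT replicate 3 (−0.011) or siPHF19 replicate 3 (−0.031). The change of the MTF2 to PHF1 ratio in BoM-1833 (4.83%) ran from −0.32% without siNT replicate 1 to 7.98%, and that in MDA-MB-436 (−5.16%) from −10.5% to −1.32%. PHF1 estimates ran from 0.026 to 0.15 and from 0.018 to 0.10.

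The higher MTF2 level in BoM-1833 controls (0.22) was lost in DESeq2 (0.22), with no filter (0.20) and without 4 of the 6 libraries, with values from 0.17 to 0.28 over all 6. With mean transcript lengths, the siNT shares in MDA-MB-436 were 68.0% (PHF19) and 21.8% (PHF1), and with coding lengths 66.2% and 20.7%. With siPHF19 they were 16.6%, 25.7% and 57.7% (PHF19, MTF2, PHF1) and 15.6%, 31.8% and 52.7%. In BoM-1833 siNT the mean lengths gave 41.6% (PHF19) and 45.8% (PHF1), and the coding lengths 40.4%, 16.2% (MTF2) and 43.4%. With siPHF19 they gave 6.91%, 20.8% and 72.3%, and 6.58%, 26.3% and 67.2%. The summed level left was 40.0% and 65.9% with mean lengths and 41.6% and 67.2% with coding lengths. These lengths weigh PHF19 and PHF1 differently by construction, and the order of the 3 genes was the same with each.

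Same-numbered siNT and siPHF19 libraries had correlations of deviations between −0.16 and −0.07, and those with different numbers ran from −0.029 to 0.16. These values gave no sign of pairing by number, but they cannot show how the libraries were prepared. With a replicate block, PRC2 list calls were 2 in MDA-MB-436 (DESeq2 and edgeR) and 0 (DESeq2) or 1 (edgeR) in BoM-1833, and neighbour calls were 2 (DESeq2) or 4 (edgeR) in MDA-MB-436 and 1 (both) in BoM-1833. The block gave MTF2 log2 fold changes of 0.02 and 0.13 and PHF1 0.09 and 0.06 by DESeq2. Without single libraries, PRC2 list calls ran from 2 to 4 and from 0 to 3, neighbour calls from 2 to 5 and from 1 to 2, and calls of the 8 mark-related genes in BoM-1833 from 0 to 2. The cause of these shifts was not tested. Depth limits PHF19 with siPHF19 in BoM-1833 most, at 144 to 182 reads a library. The fits of neighbours and mark-related genes, the block in edgeR, and the leave-one-out values of the sum and the ratio were chosen after seeing the data.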
